A study of Homo sapiens with 8 samples.

Results

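The epithelial-mesenchymal transition (EMT) genes examined here are SNAI1, SNAI2, ZEB1, ZEB2, TWIST1, CDH1, CDH2, VIM, FN1 and OVOL1. They were chosen by name, as the core transcription factors, cadherins and effectors of EMT, and found through the annotation of the array probes. All 10 genes had a probe, 14 probes in all, among 28850 genes tested. LNCaP cells, an androgen-sensitive line derived from a lymph node metastasis of human prostate cancer, were cultured in RPMI-1640 with fetal bovine serum and transfected with 30 nM siGATA2, for which the methods name 1 siRNA product, or with 30 nM of a scrambled siRNA (siControl). RNA was taken 72 h later and hybridised to 8 one-colour Agilent arrays on 1 slide, 4 labelled siGATA2 and 4 labelled siControl, which the submitters describe as biological replicates. No other treatment or genotype separated the groups, and both went through the same transfection.

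EMT is a reversible program in which epithelial cells loosen their junctions and gain motile, mesenchymal traits. SNAI1, SNAI2, ZEB1, ZEB2 and TWIST1 repress epithelial genes, the first 4 by binding E-box sequences in promoters such as that of CDH1, and OVOL1 opposes the program by repressing EMT factors. CDH1 (E-cadherin) holds epithelial cells together at adherens junctions, while CDH2 (N-cadherin), vimentin (VIM) and fibronectin (FN1) are widely used markers of the mesenchymal state. LNCaP cells keep an epithelial, luminal character with abundant E-cadherin.

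The signal of GATA2 itself, the targeted gene, read 12.61, 12.54, 11.57 and 11.40 on the siGATA2 arrays and 11.74, 11.28, 11.10 and 11.29 on the siControl arrays (numbers 1 to 4, log2 scale after quantile normalization). Limma put the difference at 0.68 (standard error 0.312, adjusted p = 0.154). A fall of the GATA2 transcript was thus not detected by the only probe matched to the gene, and the groups overlapped. This goes against the label, and every direction below is that of the labels; the arrays measure RNA and give no level of the GATA2 protein. All 9 luminal prostate markers were well above background, as called by the scanner software, on all 8 arrays. Between 24241 and 36968 probes per array were well above background, with the fewest on siControl array 3 and, at 28485, siControl array 1. Over all genes the median log2 fold change was 0.09.

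On the arrays labelled siGATA2, SNAI1 and FN1 fell and CDH1 and ZEB1 rose, whereas SNAI2, ZEB2, TWIST1, CDH2, VIM and OVOL1 did not pass the test. Limma thus placed 2 of the 10 genes lower at an adjusted p under 0.05, against 14.2% of all genes, and 2 higher, against 12.3%. At a fold of at least 2 the 2 lower genes remained, against 7.13% of all genes, and 1 of the higher genes, ZEB1, against 4.52%. The 4 array values of the groups did not overlap for the 2 lower genes (16.5% of all genes) or the 2 higher ones (16.2%). With so many changes over the whole array these counts lie near the background, and the genes are therefore described one by one. None of the 6 other genes had an unadjusted p under 0.05. In such whole-culture RNA, fewer cells of a type and less RNA per cell cannot be told apart.

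**Figure D1:**
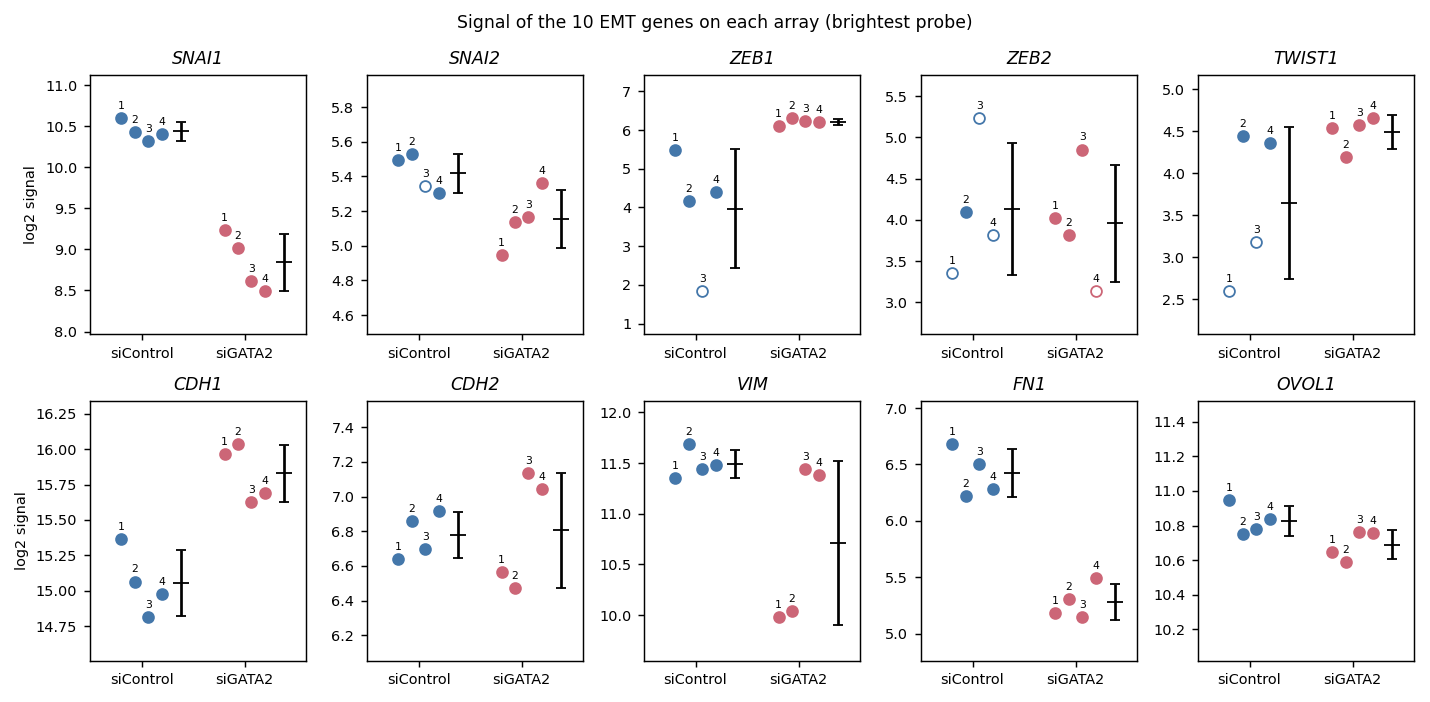
Log2 signal of each of the 10 EMT genes (brightest probe) on the 4 siControl and 4 siGATA2 arrays, numbered by replicate; the y axis is scaled to each gene. Filled points were well above background, open points were not, and the bars give the mean and SD of a group; the groups do not overlap for SNAI1, ZEB1, CDH1 and FN1, and siGATA2 arrays 1 and 2 lie apart from arrays 3 and 4 for VIM.

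SNAI1 (Snail), a zinc finger repressor of CDH1 and an early inducer of EMT, had log2 signals of 9.24, 9.02, 8.61 and 8.49 on siGATA2 arrays 1 to 4 and 10.60, 10.43, 10.32 and 10.41 on siControl arrays 1 to 4. Every siGATA2 array lay more than 1 log2 unit below every siControl array, and the probe was well above background on all 8. SNAI1 fell by 1.60 on the log2 scale (standard error 0.182, adjusted p = 0.000467 from limma), or 3.03-fold. Within the row of the slide that held siGATA2 arrays 1 to 3 and siControl array 4 the difference was -1.45, and within the other row it was -1.96. Each row held only 1 array of 1 of the groups, so the row differences given here and below rest on that array. Its call held in all 23 other settings, with log2 fold changes between -2.17 and -1.39. SNAI1 is also among the genes that the study listed from these same arrays, so its fall is not independent evidence of a direction.

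SNAI2 (Slug), the close relative of SNAI1, was dim in these cells. Its signals were 4.95, 5.14, 5.17 and 5.36 on the siGATA2 arrays and 5.50, 5.53, 5.34 and 5.30 on the siControl arrays, of which siControl array 3 was not above background. The groups overlapped, and the log2 difference of -0.26 (95% interval -0.54 to 0.02) had an adjusted p of 0.155 from limma. With 75th percentile scaling the difference of SNAI2 was 0.07, so its sign was not settled.

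ZEB1, a zinc finger and homeobox repressor of CDH1, had signals of 6.11, 6.31, 6.22 and 6.20 on the siGATA2 arrays and 5.48, 4.16, 1.84 and 4.39 on the siControl arrays. The siGATA2 arrays lay within 0.205 of each other, while the siControl arrays spread over more than 3 log2 units and siControl array 3, the lowest, was not above background. ZEB1 rose by 2.25 on the log2 scale (standard error 0.675, adjusted p = 0.0426 from limma), or 4.74-fold. The size of this rise depended on how dim signals were treated, since it was 0.73 (adjusted p = 0.000729) with normexp background correction and 1.54 (adjusted p = 0.0134) without siControl array 3. Its call held in 12 of the 23 other settings and was lost, among others, without siControl array 2 or 4, without any 1 of the siGATA2 arrays, and with the slide row as a block (2.10, adjusted p = 0.143). Within the slide rows the difference was 1.82 and 2.37. A second ZEB1 probe, under the filter on dim signals, was at 3.10, 3.21, 3.63 and 3.58 on the siGATA2 arrays and 2.48, 2.28, 3.55 and 1.81 on the siControl arrays. It was above background on siGATA2 arrays 1 and 3 only, its groups overlapped, and without the filter its difference was 0.85 (adjusted p = 0.131 from limma).

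Promoter windows of RefSeq (250 bases before and 50 after a transcript start, build GRCh38.p14) were used for 5 of the 10 genes. These were ZEB1, ZEB2, CDH2, VIM and FN1, with 12 windows in all, of which 7 were of ZEB1 and 2 of CDH2. They were searched for the E-box letters CAGGTG or CACCTG, which are reverse complements of each other, and on both strands for the GATA letters AGATAA with their variant ending in G (AGATAG) and for TGATAA with the same variant (TGATAG). E-box and GATA letters do not overlap in these 12 windows. Any window of the set on the chromosome of SNAI2 was left out, although the shares of all windows include that chromosome. E-box letters were in 2 of the 12 windows, both of ZEB1, and in 20.6% of all 35116 windows. GATA letters were in 1 of the 12, that of ZEB2, 134 bases before its start, and in 25.0% of all windows. The upstream parts of these 2 of the 7 ZEB1 windows (plus strand) are shown, with the E-box letters in capitals and the starts numbered among these 2 only. ZEB1 was the only one of the 5 genes with E-box letters, but it also had the most windows. The letters lay 57 bases before the start in the first, and 242 and 85 bases before it in the second, which held 1 more match after the start.
ZEB1 start 1, chr10:31318167-31318416: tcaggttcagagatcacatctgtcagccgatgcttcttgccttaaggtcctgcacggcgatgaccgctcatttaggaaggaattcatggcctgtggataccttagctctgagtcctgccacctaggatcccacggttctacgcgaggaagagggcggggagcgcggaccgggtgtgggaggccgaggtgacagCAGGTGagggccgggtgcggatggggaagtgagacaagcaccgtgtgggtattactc
ZEB1 start 2, chr10:31318966-31319215: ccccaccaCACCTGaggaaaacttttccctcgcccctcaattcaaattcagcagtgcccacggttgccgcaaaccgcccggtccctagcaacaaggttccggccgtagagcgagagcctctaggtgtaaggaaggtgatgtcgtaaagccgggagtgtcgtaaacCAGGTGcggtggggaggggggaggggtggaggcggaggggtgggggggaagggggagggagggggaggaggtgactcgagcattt
A match of letters is a description of the sequence and no evidence of binding in these cells.

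ZEB2, the paralogue of ZEB1, was near background. Its brighter probe read 4.03, 3.82, 4.85 and 3.14 on the siGATA2 arrays and 3.35, 4.10, 5.24 and 3.82 on the siControl arrays. It was well above background on 3 siGATA2 arrays and 1 siControl array, and the highest value, on siControl array 3, was among those that were not. The difference of -0.17 (95% interval -1.27 to 0.93) had an adjusted p of 0.819 from limma, and that of the second probe, -0.09, one of 0.807. The interval spans a 2-fold fall, so a change of that size was not detectable at this signal.

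TWIST1, a basic helix-loop-helix factor that induces EMT in development and cancer, was also dim. Its signals were 4.53, 4.19, 4.57 and 4.66 on the siGATA2 arrays and 2.60, 4.44, 3.18 and 4.36 on the siControl arrays. The low values, on siControl arrays 1 and 3, were not above background, and the other 2 siControl arrays fell among the siGATA2 values. The difference of 0.84 (standard error 0.414) had an adjusted p of 0.180 from limma. A second TWIST1 probe was above background on siControl array 3 only. OVOL1, a zinc finger factor that holds cells in the epithelial state, was well above background on all 8 arrays, with signals of 10.65, 10.59, 10.76 and 10.76 on the siGATA2 arrays and 10.95, 10.75, 10.78 and 10.84 on the siControl arrays. Its log2 difference was -0.14 (95% interval -0.37 to 0.09, adjusted p = 0.342 from limma), an interval that excludes a 2-fold change on this scale.

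CDH1 (E-cadherin), the target that SNAI and ZEB factors repress, was bright, with signals of 15.97, 16.04, 15.62 and 15.69 on the siGATA2 arrays and 15.37, 15.07, 14.81 and 14.98 on the siControl arrays. The highest siControl array lay 0.26 below the lowest siGATA2 array. CDH1 rose by 0.78 on the log2 scale (standard error 0.158, adjusted p = 0.00841 from limma), or 1.71-fold. The difference was 0.90 and 0.61 within the slide rows. Its call held in 21 of the 23 other settings. Scaling to the E1A spike-in RNA of each array left a difference of 0.02 (adjusted p = 0.990), and 0.52 (adjusted p = 0.0874) when siControl array 1, with a spike-in signal of 11.13 against 13.45 to 13.83 on the other arrays, was left out. The median log2 fold change of the genes tested was -0.43 in the first of these settings and 0.00138 in the second.

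CDH2 (N-cadherin), the cadherin that often replaces CDH1 in mesenchymal cells, had signals of 6.57, 6.47, 7.13 and 7.05 on the siGATA2 arrays and 6.64, 6.86, 6.70 and 6.91 on the siControl arrays for its brighter probe. The siControl values fell between the lower and the upper pair of siGATA2 values. The difference was 0.03 (95% interval -0.38 to 0.44, adjusted p = 0.927 from limma). The dimmer probe of CDH2 gave -0.35 (adjusted p = 0.153) and was well above background on all 4 siGATA2 and on 2 siControl arrays. The probes differed in sign, and neither was called.

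VIM (vimentin), the intermediate filament protein of mesenchymal cells, split the siGATA2 arrays. Its signals were 9.98, 10.04, 11.44 and 11.38 on siGATA2 arrays 1 to 4 and 11.35, 11.69, 11.44 and 11.48 on siControl arrays 1 to 4. Arrays 1 and 2 lay below every siControl array, whereas arrays 3 and 4 lay within their range. Limma did not call the difference of the group means, -0.78 (standard error 0.368, adjusted p = 0.164), but with array weights it was -1.32 (adjusted p = 0.0023). Array weights called far more genes over the whole array, 7585 lower and 8077 higher, against 4086 and 3558 without them. Within the slide rows the VIM difference was -0.998 and -0.11. The titles of siGATA2 arrays 1 and 2 carry the letters A and B and those of arrays 3 and 4 the letters E and F, without a stated meaning. Between arrays with the letters A and B the VIM difference was -1.34, with only siControl array 1 on the control side, and between those with D to G it was -0.13.

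The gap between siGATA2 arrays 1 and 2 and arrays 3 and 4 was -1.40 for VIM, 1.09 for GATA2, 0.58 for SNAI1, 0.34 for CDH1 and -0.57 for CDH2 on the log2 scale. For FN1 it was -0.07 and for ZEB1 0.00. Over all genes the median size of this gap was 0.386, and 12.5% of genes had one over 1 log2 unit. On the siGATA2 arrays with the higher GATA2 signal, VIM and CDH2 were lower and CDH1 and SNAI1 higher than on the other pair. The CDH1 gap was below the median size over all genes, and no relation to GATA2 is read from these 4 arrays. The part of a batch in these gaps was not tested.

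FN1 (fibronectin), the matrix glycoprotein laid down by mesenchymal cells, had low signals of 5.19, 5.31, 5.15 and 5.50 on the siGATA2 arrays and 6.68, 6.22, 6.51 and 6.28 on the siControl arrays. All 8 values were well above background, and the groups were 0.72 apart at their closest. They came from the only probe matched to FN1, and which FN1 transcripts it detects was not tested. FN1 fell by 1.14 on the log2 scale (standard error 0.142, adjusted p = 0.000734 from limma), or 2.20-fold. Within the slide rows the difference was -1.07 and -0.97. Normexp background correction, whose offset shrinks the fold of dim probes, gave -0.49 (adjusted p = 0.00188), and spike-in scaling gave -1.47 (adjusted p = 0.122), the only setting of 23 that ended the call. The 250 bases before its RefSeq start (build GRCh38.p14, minus strand) are shown as the window of the only lower gene of the set that had one. They held neither E-box nor GATA letters.
FN1, chr2:215436069-215436318: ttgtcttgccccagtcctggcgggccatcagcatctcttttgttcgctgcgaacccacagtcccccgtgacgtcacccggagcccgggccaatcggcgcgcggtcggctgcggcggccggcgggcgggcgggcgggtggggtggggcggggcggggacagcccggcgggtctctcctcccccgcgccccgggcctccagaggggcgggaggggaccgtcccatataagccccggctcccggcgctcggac

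**Figure D2:**
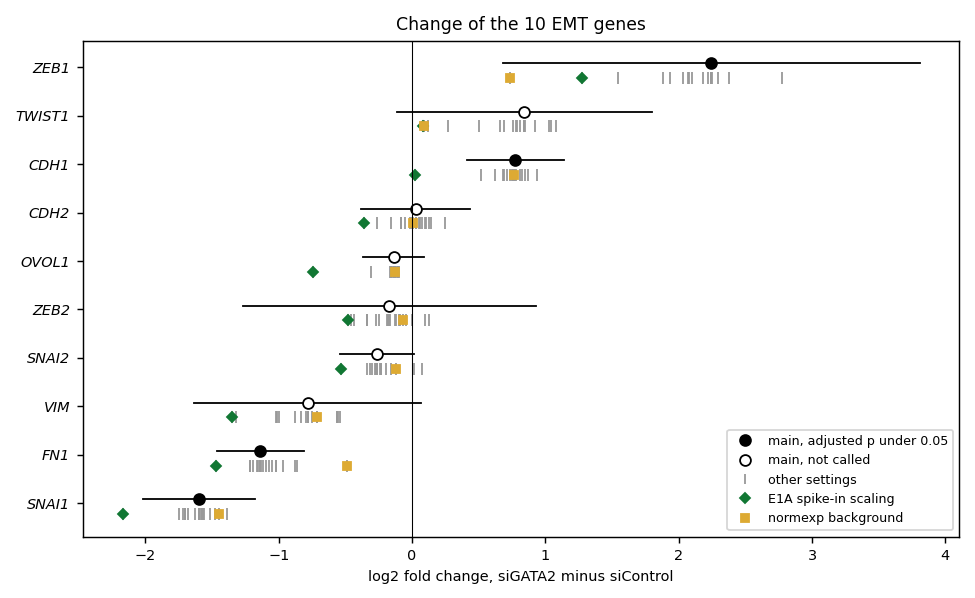
Log2 fold change (siGATA2 minus siControl) of the 10 EMT genes, ordered by size; circles with lines give the estimate and its 95% interval from limma, filled where the adjusted p was under 0.05, and the marks beneath give the same value in the 23 other settings. SNAI1 lies below 0 throughout, the spike-in value of CDH1 falls to 0.02, and ZEB1 spans 0.73 to 2.78.

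The difference of CDH1 from each mesenchymal gene on the same array is untouched by a scaling that shifts an array as a whole, although not by quantile normalization, which moves bright and dim probes differently. CDH1 minus FN1 was 10.20 to 10.78 on the siGATA2 arrays and 8.31 to 8.85 on the siControl arrays, a rise of 1.91 (standard error 0.177). It was 1.49 with 75th percentile or spike-in scaling, which shift whole arrays, and 1.26 with normexp background correction. Each had an exact permutation p of 0.0286. In the quantile-normalized values CDH1 was higher and FN1 lower on every siGATA2 array than on any siControl array. The permutation p of CDH1 minus FN1 was fixed by this and adds nothing to the calls of CDH1 and FN1. CDH1 minus VIM was 4.19 to 5.99 on the siGATA2 arrays and 3.37 to 4.02 on the siControl arrays, a rise of 1.56 (standard error 0.526), or 1.37 with either whole-array scaling. Neither pair of groups overlapped, and each had an exact two-sided permutation p of 0.0286, the smallest that 4 arrays against 4 allow, or 0.0429 after adjustment over 3 comparisons. CDH1 alone already separated the groups, and VIM was not called. The permutation p of CDH1 minus VIM is therefore not read as support for a change of VIM. CDH1 minus CDH2 was 8.49 to 9.57 on the siGATA2 arrays and 8.06 to 8.73 on the siControl arrays. Its difference of 0.75 (standard error 0.309) had an exact two-sided permutation p of 0.0857, and the groups overlapped. With whole-array scaling that difference was smaller, 0.38, and its exact permutation p was 0.0286, so this comparison turns on the normalization. The CDH1 to VIM difference was larger on siGATA2 arrays 1 and 2 than on arrays 3 and 4. Its exact permutation p was 0.0857 without any 1 of the siControl arrays, with differences between 1.48 and 1.70. The level of a difference between probes has no meaning of its own, so only its change is read.

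**Figure D3:**
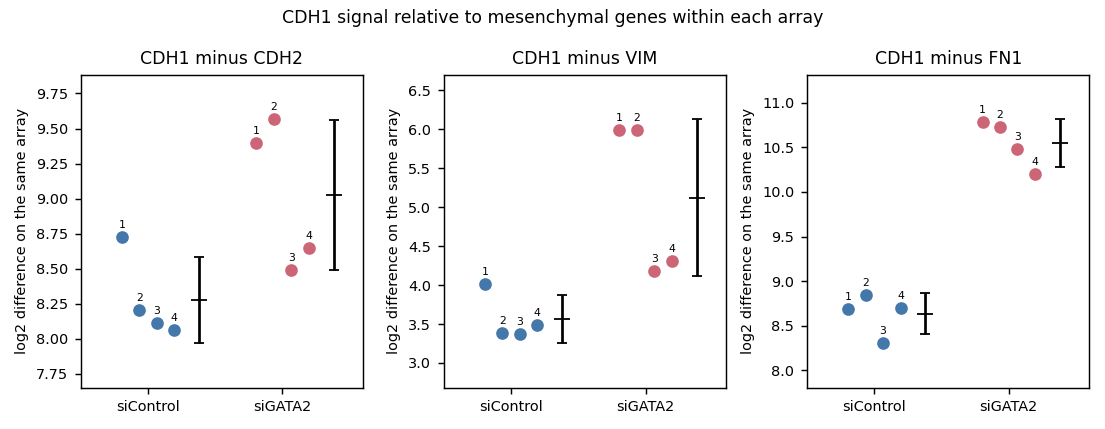
Log2 signal of CDH1 minus that of CDH2, VIM or FN1 on the same array, for the 4 siControl and 4 siGATA2 arrays, numbered by replicate, with the mean and SD of each group. The siGATA2 arrays lie above the siControl arrays for FN1 and VIM, by 1.91 and 1.56 on average, and overlap them for CDH2.

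The other genes of the EMT program were read from lists of its regulators and effectors. The counts of each list stand against the 14.2% of all genes that were lower and the 12.3% that were higher, and nothing particular to a list is read from them. Of 12 other EMT transcription factors tested, 4 were lower, 1 was higher and 7 were not called by limma, with a median log2 fold change of -0.01 against 0.09 over all genes. TCF3, whose E2A proteins repress CDH1, fell from a mean of 13.62 to 11.93 (log2 fold change -1.70, adjusted p = 0.000656). SOX4 and TCF4 were also lower. SNAI3, the third member of the Snail family, rose by 0.78 (adjusted p = 0.00256), opposite in sign to SNAI1. The number lower was 3 to 5 in the 23 other settings.

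Of 23 corepressors and turnover factors of SNAI1 and ZEB proteins, 7 were lower and 6 higher, with a median of 0.15. The number higher was 3 with 75th percentile scaling, where 7 were higher at an unadjusted p under 0.05. With spike-in scaling 0 were higher, also at an unadjusted p under 0.05. The number lower was 3 there, or 7 at an unadjusted p under 0.05. Both enzymes that modify chromatin at SNAI1 targets and ligases that degrade SNAI1 were among the called genes of this list. SUV39H1, the histone H3 lysine 9 methyltransferase, fell by 1.81 (adjusted p = 0.000581 from limma), and LOXL3, a lysyl oxidase that binds SNAI1, fell by 1.68 (adjusted p = 0.000101). EZH2, KDM1A and HDAC2, further chromatin repressors, and LIMD1 and FBXW7 were lower too. AJUBA and WTIP, LIM proteins that bind SNAI1 as corepressors, rose by 1.37 (adjusted p = 0.000423) and 1.08 (adjusted p = 0.000157). Their relative LIMD1 fell by 0.95, so these LIM proteins moved in both directions. FBXL14, a ubiquitin ligase subunit for SNAI1, rose by 1.06 (adjusted p = 0.00197), as did GSK3B, which marks SNAI1 protein for decay, by 0.67, and the ZEB corepressors CTBP1 and CTBP2. The arrays measure RNA, and the amount of SNAI1 protein was not measured on them.

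TGF-beta is the best known inducer of SNAI and ZEB genes. Of 14 ligands, receptors and SMADs, 1 was lower and 4 higher, with a median of 0.36. The number higher turned on the setting, with 8 under 75th percentile scaling, 7 with the title letter block and 0 under spike-in scaling (1 at an unadjusted p under 0.05). TGFBR3, the co-receptor betaglycan, fell by 1.09 (adjusted p = 0.00457 from limma), while SMAD3, a transducer of the signal, rose by 1.16 (adjusted p = 0.00266). SMAD4, its partner, and SMAD7, an inhibitor of the pathway, were also higher, by 0.73 and 0.98. The ligand TGFB3 is among the 4, but its mean was 2.58 on the siControl arrays, where the probe was well above background on 1 array, and 5.31 on the siGATA2 arrays. It passed the filter at a mean of 3 only through the siGATA2 arrays, so its call is not read as a result.

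Of 14 epithelial transcription and splicing factors, 5 were lower and 2 higher, with a median of -0.20. In the 23 other settings 3 to 7 were lower and 1 to 4 higher. EHF, an epithelial ETS factor, fell by 1.75 (adjusted p = 0.00855 from limma), GRHL3, a grainyhead factor, fell by 1.54 (adjusted p = 0.000475), and KLF4, ELF5 and GRHL2 were lower. ELF3, a relative of EHF and ELF5, rose by 2.39 (adjusted p = 2.63e-05), from a mean of 11.41 to 13.81. ESRP1, which keeps epithelial splice forms, rose by 0.66 (adjusted p = 0.00378). Thus the epithelial factors moved in both directions while CDH1 rose.

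Of 15 genes listed around CDH1 and the adherens junction, 6 were higher and 2 lower, with a median of 0.40. NECTIN2, an adhesion receptor of the junction, rose by 0.98 (adjusted p = 0.0113 from limma), and AFDN (afadin), which ties nectins to actin, rose by 0.96 (adjusted p = 0.00321). CTNNB1 and JUP, the beta- and gamma-catenins that bind the tail of CDH1, rose by 0.54 and 0.50, and NECTIN3 and VEZT were higher. CDH3 (P-cadherin) fell by 0.65 (adjusted p = 0.0348) and EZR (ezrin) by 0.62 (adjusted p = 0.0344). These changes were all under 2-fold. The number higher was 3 with 75th percentile scaling, 2 with the slide row block and 0 with spike-in scaling (0 also at an unadjusted p under 0.05), or 1 when siControl array 1 was left out there. The number lower moved in 15 of the 23 other settings. It was 0 with the methods' test, the slide row block and without siGATA2 array 2, siControl array 2 or siControl array 4, with 2 lower at an unadjusted p under 0.05 in each, so the calls of CDH3 and EZR depend on the setting.

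Of 19 other classical and type II cadherins, 14 passed the filter on dim signals. Limma called 2 of them lower and 0 higher, with 3 higher at an unadjusted p under 0.05. CDH18, a type II cadherin, fell by 1.49 (adjusted p = 0.00228). The other was CDH6, well above background on 1 siGATA2 and 2 siControl arrays, with means of 2.98 and 3.99. It passed the filter only through the siControl arrays, so its call is not read as a result. The number lower was 1 in 9 of the 23 other settings. The methods' test, on the same values, also called 0 higher, with 1 higher before adjustment.

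Of 18 genes of the mesenchymal matrix, 13 passed the filter, of which 2 were lower and 3 higher, with a median of 0.07. Spike-in scaling left 1 of each. COL5A2, a chain of type V collagen, fell by 3.40 (adjusted p = 1.17e-05 from limma), from a mean of 11.01 to 7.61, and TNC (tenascin C) fell by 1.24 (adjusted p = 0.000807). COL6A2 rose by 1.49 (adjusted p = 0.00392), and COL5A1, the partner chain of COL5A2, by 0.90. CCN2 (connective tissue growth factor) rose by 4.57 (adjusted p = 0.000193), with its probe well above background on 2 of the 4 siControl arrays. Of 10 genes of the mesenchymal cytoskeleton, 2 were lower and 1 higher, with a median of 0.24. ACTA2 (smooth muscle actin) fell by 2.97 (adjusted p = 0.00314), CALD1 (caldesmon) fell by 0.51 (adjusted p = 0.0065) and TAGLN (transgelin) rose by 1.29 (adjusted p = 0.0118), a call that spike-in scaling and the slide row block ended. The fall of FN1 was therefore accompanied by changes of matrix genes in both directions.

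**Figure D4:**
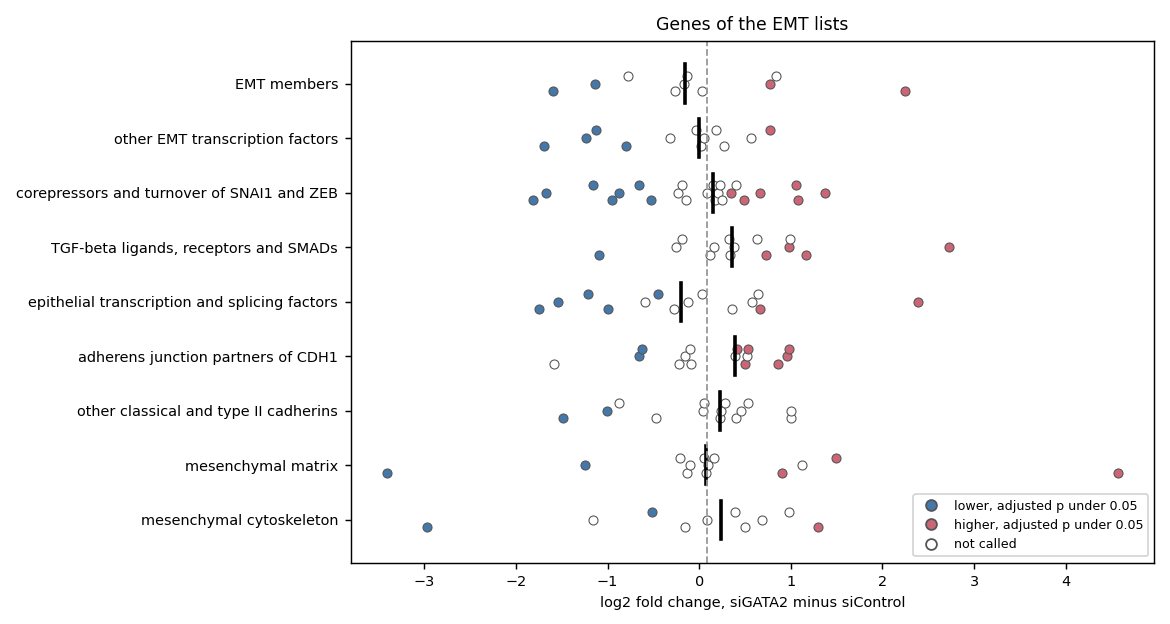
Log2 fold change (siGATA2 minus siControl) of every tested gene of the EMT set and of 8 lists of EMT regulators and effectors; blue points were lower and red points higher in the limma test (adjusted p under 0.05), open points were not called, black bars give the median of a list and the dashed line that of all genes, 0.09. Each list holds genes on both sides of 0, and list medians lie between -0.20 and 0.40.

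Markers of other cells that express VIM and FN1 were read beside these results. Of 8 fibroblast markers 6 were tested, and 1 was lower (PDGFRB) and 1 higher (THY1, above background on no siControl array and past the filter only through the siGATA2 arrays), while COL3A1 and LUM were under the filter. The summed signal of this list was 490.5 to 884.8 on the siGATA2 arrays and 629.5 to 1054.6 on the siControl arrays, so the groups overlapped. Of 5 endothelial markers 4 were tested, and 1 was lower (VWF), with sums of 792.0 to 1025.8 against 1162.6 to 1429.6. Of 5 leukocyte markers 2 were higher (CD68 and PTPRC), with sums of 1288.7 to 1619.0 against 792.3 to 921.3. Of 9 luminal markers 4 were lower, among them KLK2, KLK3 and HOXB13, 1 was higher (KRT8) and 4 were not called. Over all genes 14.2% were lower and 12.3% higher, and nothing particular to a cell type is read from these marker counts. The part of these markers in the results for the EMT genes was not tested.

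The genes whose profiles over the 8 arrays were closest to a called EMT gene were found among 13251 genes well above background on all arrays, by the root mean square of the log2 differences after centring on the siControl mean. Closest to SNAI1 were PDE4A, a cyclic AMP phosphodiesterase (0.0830), the RNA gene PDCD4-AS1 (0.0873) and B4GALNT1, a ganglioside synthase (0.0917). Closest to CDH1 were RGPD5 (0.0383), ZNF582-DT (0.0537) and the zinc finger gene ZNF280D (0.0574). Closest to FN1 were COMMD4 (0.0901), F12, coagulation factor XII (0.122), and SOD3, the extracellular superoxide dismutase (0.122). These names describe likeness over 8 arrays only.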

How the data were processed

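LNCaP RNA was measured on 8 one-colour arrays, grouped by the labels into siGATA2 (n = 4) and siControl (n = 4). The authors deposited spot intensity from Agilent Feature Extraction 11.0.1.1 (version per the submitters' processing notes) and a matrix of log2 values, used as an alternative (r with its own array at least 0.985). From the deposited intensity, the log2 processed signal was averaged over unflagged spots, quantile-normalized as the methods name and tested with lmFit and eBayes of limma 3.58.1 in R 4.3.3, with Benjamini-Hochberg adjustment over 28850 genes. Of 42405 probes 26364 matched a symbol in RefSeq tables (GRCh38.p14, names only). A filter at a mean log2 signal of 3 left 12 of the 14 EMT probes, and each gene took its brightest probe. Calls needed an adjusted p under 0.05.

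The genes named were GATA2, the 10 EMT genes, the up to 2 called genes of each list with the largest fall and rise whose groups did not overlap and that were above background on every array of a group, and the 3 nearest profiles; other list genes were named after their values were seen, and some list genes are not reported here. The members and lists were chosen with earlier results of these data known. Alternatives were 75th percentile scaling, 7 E1A spike-in probes, normexp (offset 50), no or another filter on dim probes, deposited log2 values, the methods' test, an intensity trend, the mean over probes, array weights, blocks by replicate number, slide row and title letters, and arrays left out; the title letter block and spike-in scaling without siControl array 1 were chosen after seeing the data. Replicate numbers did not pair the arrays, with deviation correlations of 0.54, -0.31, 0.17 and 0.22. On simulated data for siGATA2 against siControl (28730 genes, 200 changed), 37.1% of changes of 1 log2 unit were recovered. Of changes of 2 log2 units 72.6% were recovered, and 6.09% of calls were false. On the arrays limma called far more, 4086 lower and 3558 higher. Recovery at such numbers of changes was not tested, and these rates are not read as those of the arrays. The number of arrays limits the precision.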

Additional observations from a re-analysis of the deposited data

Results flagged for a closer look

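In 3 of 92 groups of 4 arrays examined, 1 array lay far from the other 3, where chance gives about 1 in 20 groups. LOXL3 read 8.09 (log2) on siControl array 1, below the 8.48 to 8.53 of its 3 companions, and the gap took up 0.900 of the range. EHF read 13.67 on siControl array 1, above 12.69 to 12.85, with a gap of 0.835 of the range. AFDN read 11.32 on siControl array 3, below 11.67 to 11.72, with a gap of 0.871 of the range. None of the 10 EMT genes was among them.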

How the results depend on the processing

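SNAI1 kept its direction and its call in all 23 other settings, FN1 in 22, CDH1 in 21 and ZEB1 in 12. Lower EMT genes numbered 2, but 1 with E1A spike-in scaling and 4 with array weights, and lower at least 2-fold 1 with spike-in scaling (also without siControl array 1), 75th percentile scaling, normexp or siControl arrays 2 and 4 only. Higher EMT genes numbered 2, but 0 with spike-in scaling (0 also at an unadjusted p under 0.05) and 1 with the methods' test, the replicate block, the slide row block, the title letter block and spike-in scaling without siControl array 1, and 1 to 2 when 1 array was left out. Of these, 1 was at least 2-fold higher, but 0 with spike-in scaling, normexp, the methods' test and each of the 3 blocks, and 0 to 1 when 1 array was left out; at an unadjusted p under 0.05 these were 0, 0, 1, 1, 1 and 2. The replicate block put ZEB1 at an adjusted p of 0.0527 and changed no other EMT gene's call. Over all genes, 1304 were at least 2-fold higher, with 141 under spike-in scaling, 818 under normexp and 3211 under array weights. List genes numbered 25 lower and 23 higher, but 16 and 2 with spike-in scaling, 13 higher with it and without siControl array 1, and 37 higher with the title letter block. The share of calls that were higher was 46.5%, 6.91% with spike-in scaling and 29.5% with it and without siControl array 1. GATA2 was called higher with array weights (1.11) and the title letter block (0.47). Both settings called more genes over the whole array. Array weights called 7585 lower and 8077 higher and the title letter block 5757 and 7198, against 4086 and 3558 with neither. The sign turned for SNAI2 with 75th percentile scaling (0.0747) and spike-in scaling without siControl array 1 (0.0147), for ZEB2 with 75th percentile scaling (0.13) and between -0.46 and 0.10 when 1 array was left out, and for CDH2 with spike-in scaling (-0.36), the mean over probes (-0.16), array weights (-0.26), siControl arrays 2 and 4 only (-0.0834) and between -0.0829 and 0.139 when 1 array was left out. The cause was not tested. Signal over background limits SNAI2, ZEB1, ZEB2 and TWIST1, which were not well above background on at least 1 siControl array.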
